A study of Homo sapiens with 10 samples.

Results

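The transcripts of 7 genes that write, copy or remove methyl groups on DNA were followed in H1 cells: the DNA methyltransferases DNMT1, DNMT3A and DNMT3B, the methylation cofactor UHRF1, and the dioxygenases TET1, TET2 and TET3. The members were taken by gene name, with earlier results of these data known. All 7 were rows of the deposited table, out of 13808 genes and 14785 rows in all, the other 977 rows being subfamilies of transposable elements (TEs) and transfer RNAs. None was lost to the filter on low values.

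H1 is an established human embryonic stem cell line. Its genotype was labelled as wild type in every group, and all groups had been infected with packaged shRNA virus and selected with puromycin, the control included. Each group was defined by the target of its short hairpin RNA (shRNA). They were luciferase (shLUC, the control, with no human target), SMARCA4 (shSMARCA4, the ATPase of the BAF chromatin remodeller), MAFK (shMAFK, a small MAF transcription factor), E2F6 (shE2F6, a repressive E2F factor) and KDM1A (shKDM1A, the histone demethylase also called LSD1). There were 2 libraries in each of the 5 groups, described by the submitters as biological duplicates. The number of hairpins per target and the time from infection to harvest are not given in the sources used here. In such bulk samples, fewer cells of a type and less RNA per cell cannot be told apart.

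DNA methylation in mammals is placed on cytosines that precede guanines (CpG sites). DNMT3A and DNMT3B place methyl groups on unmethylated DNA, whereas DNMT1 copies the pattern onto the new strand after replication, guided by UHRF1, which binds hemimethylated CpG and ubiquitinates histone H3. The TET enzymes oxidise methylcytosine with 2-oxoglutarate and iron, and base excision repair or dilution at replication then returns the site to cytosine. Human embryonic stem cells are known for high DNMT3B and TET1. Embryonic stem cells of the mouse survive without the DNA methyltransferases, whereas human ones need DNMT1.

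Upstream sequence was examined because 1 of the knockdowns was of an E2F factor and another of a MAF factor. RefSeq (build GRCh38.p14) gave 18 start sites for the 7 genes, and the 250 bases before each were searched on both strands for 3 E2F words (TTTCCCGC, TTTGGCGC, TTTCGCGC), for the E-box CACGTG and for the MAF core word TGCTGAC. The E2F words do not overlap the other motifs in spelling. Any of the 3 was present in 2.324% of all 35116 promoter windows, CACGTG in 6.345% and TGCTGAC in 3.429%. UHRF1 was the only member with an E2F word, in 2 of its 3 windows, so both stretches are shown. DNMT3B and TET1 are shown as the members with the smallest unadjusted p and the largest difference from the control in what follows, and DNMT3A as a member with an E-box. Capitals mark a matched motif, and sequences run 5′ to 3′ on the gene's strand.
UHRF1 start 1 (chr19:4909471-4909500, plus strand, last 30 bases): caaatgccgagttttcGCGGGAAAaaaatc
UHRF1 start 2 (chr19:4909894-4910143, plus strand): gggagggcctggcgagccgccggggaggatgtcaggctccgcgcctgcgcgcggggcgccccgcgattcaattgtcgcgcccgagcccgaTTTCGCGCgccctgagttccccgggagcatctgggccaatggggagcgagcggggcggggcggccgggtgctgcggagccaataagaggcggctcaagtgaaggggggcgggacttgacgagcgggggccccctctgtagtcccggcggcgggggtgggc
DNMT3B (chr20:32779602-32779851, plus strand): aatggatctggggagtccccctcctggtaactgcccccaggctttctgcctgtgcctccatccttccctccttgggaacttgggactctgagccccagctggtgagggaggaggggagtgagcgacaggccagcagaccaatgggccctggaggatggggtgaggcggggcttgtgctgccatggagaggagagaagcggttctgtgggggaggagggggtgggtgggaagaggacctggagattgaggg
TET1 start 1 (chr10:68560087-68560336, plus strand): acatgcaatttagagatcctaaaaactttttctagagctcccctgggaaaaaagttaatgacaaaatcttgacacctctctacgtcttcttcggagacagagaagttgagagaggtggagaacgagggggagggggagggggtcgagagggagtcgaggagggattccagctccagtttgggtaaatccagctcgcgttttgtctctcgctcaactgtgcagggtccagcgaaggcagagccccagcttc
DNMT3A start 4 (chr2:25252316-25252565, minus strand): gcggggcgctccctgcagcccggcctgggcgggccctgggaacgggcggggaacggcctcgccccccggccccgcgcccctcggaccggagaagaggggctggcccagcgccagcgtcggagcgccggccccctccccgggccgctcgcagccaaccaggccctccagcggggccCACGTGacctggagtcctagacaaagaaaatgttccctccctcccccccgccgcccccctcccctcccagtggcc
The UHRF1 words lay at -14 to -7 (TTTCCCGC on the opposite strand) and at -160 to -153 (TTTCGCGC), counted from the first base of the transcript. The DNMT3B window held 3 CpG and the TET1 window 9, against 32 in the second UHRF1 window and 25 in the DNMT3A window, with a median of 11 over all promoters. This DNMT3B window, its only one, lies inside the gene as annotated by GENCODE (chr20:32762385-32809356). The only DNMT1 window (chr19:10194954-10195203), the UHRF1 windows and the window of DNMT3A start 4 also lie inside their annotated genes. The sequence before the annotated 5′ ends of DNMT3B, DNMT1 and UHRF1 was not searched. Of the 18 windows, 7 overlap an annotated exon of the same gene. TET3 had the E-box at 2 places in 1 window, TET2 at 1 place, and no window of DNMT1, DNMT3B or TET1 held any of the 5 motifs. A match is a description of letters, and the absence of one says only that these letters are not in the window.

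Values are normalized tag counts, whole numbers that had been brought to a common scale. The totals lay between 22836548 and 22855295 and the median was 594 in every library, so the read depth is unknown. The knockdowns differed in extent. SMARCA4 fell to 12.7% of its control mean and KDM1A to 42.1% (3290 and 1879 normalized tag counts, against 6344 and 5925), while E2F6 was at 61.3% (336 and 304, against 491 and 553). MAFK was at 59.6% with libraries at 82 and 216 against 212 and 288 in shLUC, so the library labelled shMAFK replicate 2 lay inside the control range. The pooled SD between replicates over all rows was 0.53 on the log2 scale in shKDM1A and 0.26 to 0.33 in the other 4 groups. Of the pluripotency markers 13 of 13 were present, with POU5F1 between 16615 and 148866 and SOX2 between 4426 and 7680. Summed mesendoderm markers (5 of 12 were rows) reached 9497 and 1862 in shSMARCA4 against 220 and 162 in shLUC, and 69 to 336 in the other 3 knockdowns. GATA4, GATA6, GSC, LHX1, SOX17 and TBXT were not among the rows, and whether mesendoderm cells were present was not tested.

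None of the 7 genes passed the test in any knockdown. Differences were tested with limma on log2(value + 1) over all 14785 rows, with a Benjamini-Hochberg adjusted p under 0.05 as the threshold. Across the 28 comparisons with shLUC the largest difference was 0.65 on the log2 scale (TET1 in shSMARCA4), the smallest adjusted p was 0.308, and 1 of the 28 had an unadjusted p under 0.05 (DNMT3B in shE2F6). In the same tests 4.18% of all rows passed for shSMARCA4, 0.0135% for shMAFK, 0% for shE2F6 and 0.0271% for shKDM1A. At an unadjusted p under 0.05 the shares of all rows, in the same order, were 16.3%, 8.77%, 5.09% and 11.5%. A p that misses the threshold does not show that levels were equal. The 95% interval of the difference excluded both a 2-fold rise and a 2-fold fall in 24 of the 28 comparisons, the exceptions being TET1 in shSMARCA4 and shE2F6 and UHRF1 in shE2F6 and shKDM1A. The 4 comparisons share the same 2 control libraries.

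**Figure D1:**
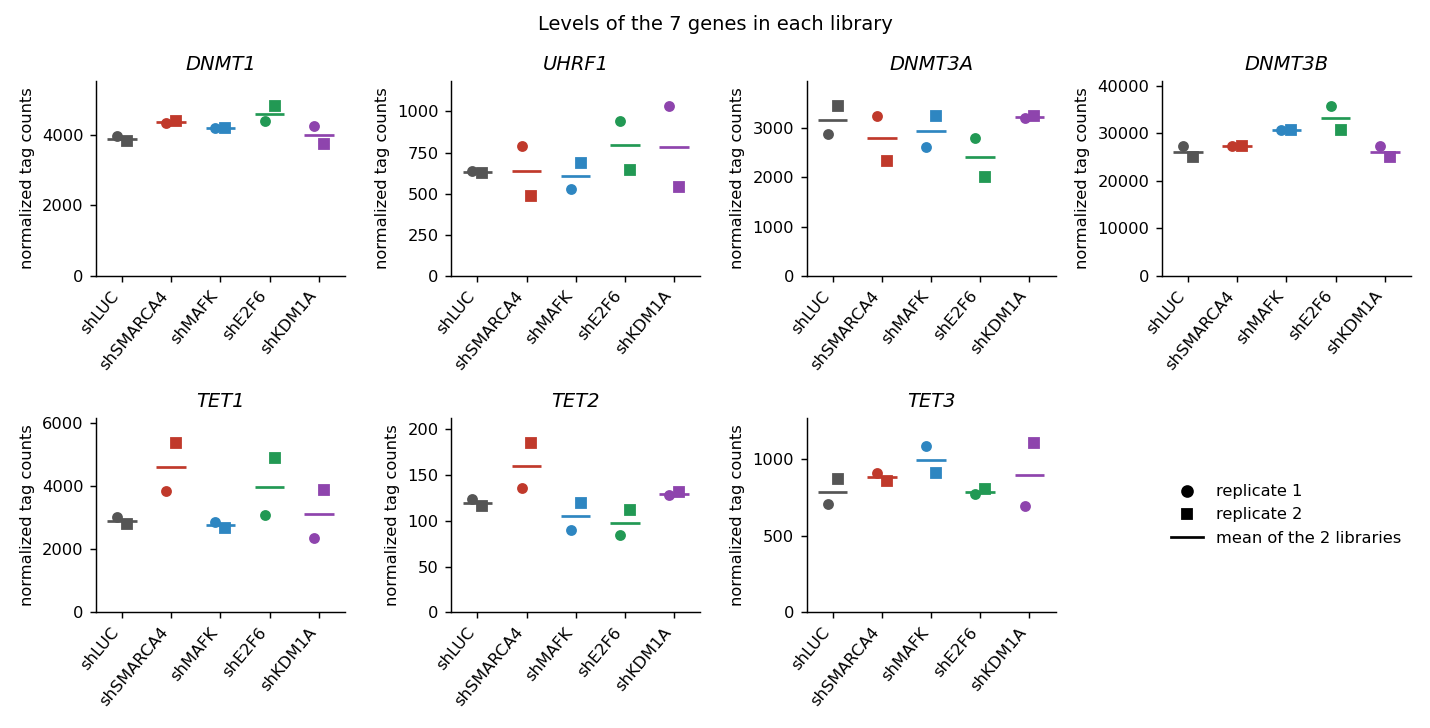
Levels of the 7 genes (normalized tag counts, linear axes from 0) in each of the 10 libraries, with circles for replicate 1, squares for replicate 2 and a bar for the mean of the 2. DNMT1 and DNMT3B varied little, while UHRF1 and TET1 differed widely between replicates of shSMARCA4, shE2F6 and shKDM1A.

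The maintenance enzyme DNMT1 (ENSG00000130816, chr19:10133345-10231286, GRCh38, minus strand) was among the steadiest rows of the table. It had 3966 and 3821 normalized tag counts in shLUC, 4340 and 4390 in shSMARCA4, 4196 and 4196 in shMAFK, 4261 and 3738 in shKDM1A, and 4390 and 4808 in shE2F6. Both libraries of shSMARCA4, shMAFK and shE2F6 were above both controls, and those of shKDM1A lay on either side. The largest difference was in shE2F6, at 0.24 on the log2 scale (SE 0.14, 95% interval -0.07 to 0.55, limma adjusted p 0.996). Its SD between replicates of a group was 0.0749 on the log2 scale, and only 2.19% of rows had a smaller one. DNMT1 and SMARCA4 lie on the same chromosome arm, with the 5′ ends of their GENCODE genes 729.54 kb apart. The RefSeq start of DNMT1 used for its promoter window lies inside the GENCODE gene. DNMT1 was at 112% of control in shSMARCA4 while SMARCA4 was at 12.7%. The neighbouring gene S1PR2 overlaps DNMT1 on the same strand, and how reads in the overlap were assigned is not given.

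UHRF1 (ENSG00000276043, chr19:4903080-4962154, plus strand), the partner that brings DNMT1 to replicated DNA, varied far more than DNMT1 itself. Its levels were 640 and 624 in shLUC, 788 and 486 in shSMARCA4, 530 and 684 in shMAFK, 1031 and 538 in shKDM1A, and 942 and 645 in shE2F6. The controls agreed closely, but in shSMARCA4, shMAFK and shKDM1A 1 library lay above them and the other below. Only in shE2F6 were both libraries above the controls, and the difference was 0.30 on the log2 scale (SE 0.34, interval -0.47 to 1.07, adjusted p 1). In shKDM1A it was 0.24 (interval -0.53 to 1.00, adjusted p 0.774), and -0.23 without replicate 1 of that group. The SD of UHRF1 between replicates was 0.424 on the log2 scale, larger than in 97% of the 200 rows nearest to it in mean level. UHRF1 is the member with E2F words before its starts, and its difference in shE2F6 was within its spread. The ratio of DNMT1 to UHRF1 was 6.19 and 6.12 in shLUC and ranged from 4.13 (shKDM1A replicate 1) to 9.02 (shSMARCA4 replicate 2) elsewhere.

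DNMT3B (ENSG00000088305, chr20:32762385-32809356, plus strand) was the most abundant member by far. It had 27326 and 25021 normalized tag counts in shLUC, 27326 and 27326 in shSMARCA4, 30768 and 30768 in shMAFK, 27326 and 25021 in shKDM1A, and 35710 and 30768 in shE2F6. The libraries of shMAFK and shE2F6 were all above the controls, and the shKDM1A libraries held exactly the control values. Near the top of each library values fall on fixed steps. DNMT3B took only 4 different values, each held by 7 rows in every library, with 43 to 73 rows above it. Each lay 0.09 to 0.21 above the next lower value on the log2 scale. The difference was 0.34 in shE2F6 (SE 0.12, interval 0.08 to 0.61, unadjusted p 0.0172, adjusted p 0.901) and 0.23 in shMAFK (interval -0.03 to 0.50, adjusted p 0.646). Of all rows 2.55% were higher in shE2F6 at an unadjusted p under 0.05. Without shE2F6 replicate 1 the difference was 0.23. Because both shMAFK libraries held 30768, leaving out the one labelled replicate 2 could not change the difference there. Differences were 0.06 in shSMARCA4 and 0.00 in shKDM1A.

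DNMT3A (ENSG00000119772, chr2:25227855-25342590, minus strand), the other de novo enzyme, went the other way from DNMT3B in shE2F6. It had 2891 and 3450 in shLUC, 3246 and 2346 in shSMARCA4, 2628 and 3262 in shMAFK, 3207 and 3246 in shKDM1A, and 2808 and 2016 in shE2F6. Only the shE2F6 libraries were both below the controls, with a difference of -0.41 on the log2 scale (SE 0.22, interval -0.92 to 0.10, unadjusted p 0.102, adjusted p 0.995). Without shE2F6 replicate 2 it was -0.17. The differences in the other knockdowns were between -0.19 and 0.03. The ratio of DNMT3B to DNMT3A was 9.45 and 7.25 in shLUC, 12.7 and 15.3 in shE2F6, and 7.71 to 11.7 in the remaining libraries.

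**Figure D2:**
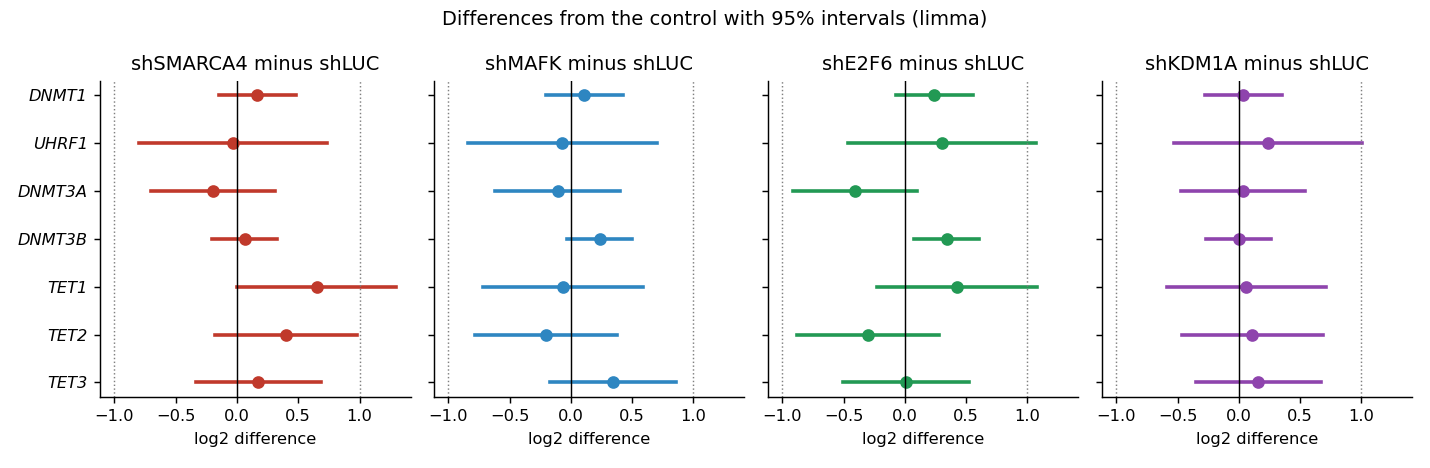
Differences from shLUC on the log2 scale for the 7 genes in the 4 knockdowns, with points for the limma estimate, lines for its 95% interval and dotted lines at 2-fold. The only interval that excluded 0 was that of DNMT3B in shE2F6.

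Set per kilobase of exon, DNMT3B made up most of the summed DNA methyltransferase level. Whether the values scale with transcript length is not known, because the normalization is not given. Its mean level was 6206 normalized tag counts per kb (union of GENCODE release 29 exons), above 99.5% of genes, against 430 for DNMT1 (above 84.5%) and 242 for DNMT3A (above 71.5%). DNMT3B held 88.9% to 91.9% of the sum of the 3 in every library. With the longest coding transcript as the length, its share was 84.4% to 88.1%. The order DNMT3B, DNMT1, DNMT3A held in all 10 libraries. UHRF1 was at 134 per kb, above 52.8% of genes.

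TET1 (ENSG00000138336, chr10:68560656-68694482, plus strand), the TET enzyme typical of pluripotent cells, showed the largest difference of any member. It had 3007 and 2794 normalized tag counts in shLUC, 3850 and 5367 in shSMARCA4, 2879 and 2677 in shMAFK, 2362 and 3873 in shKDM1A, and 3074 and 4906 in shE2F6. Both shSMARCA4 libraries were above the controls, as were both of shE2F6, in each case with replicate 2 far above replicate 1. In shSMARCA4 the difference was 0.65 (SE 0.29, interval -0.0032 to 1.30, unadjusted p 0.0509, adjusted p 0.308), which is 1.57-fold. Without shSMARCA4 replicate 2 it was 0.41. The shSMARCA4 library with the higher TET1, replicate 2, was the one with the lower sum of mesendoderm markers (1862 against 9497). The part of any mesendoderm cells in the result was not tested. In shE2F6 the difference was 0.42 (interval -0.23 to 1.07, adjusted p 1), and 0.08 without replicate 2. The differences in shMAFK and shKDM1A were -0.06 and 0.06.

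TET2 (ENSG00000168769, chr4:105145875-105279816, plus strand) was the lowest member. It had 124 and 116 in shLUC, 136 and 185 in shSMARCA4, 90 and 120 in shMAFK, 128 and 131 in shKDM1A, and 84 and 112 in shE2F6. The shSMARCA4 and shKDM1A libraries were above both controls and the shE2F6 libraries below both. None of these differences passed, at 0.40 in shSMARCA4 (interval -0.18 to 0.98, adjusted p 0.516), -0.30 in shE2F6 (interval -0.88 to 0.28, adjusted p 1) and 0.11 in shKDM1A (interval -0.47 to 0.69, adjusted p 0.871). The antisense transcript TET2-AS1 overlaps the gene, and whether strand was used in counting is not given.

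TET3 (ENSG00000187605, chr2:73986404-74108176, plus strand), known from the oocyte and zygote as well as from neurons, had intermediate levels. They were 706 and 868 in shLUC, 909 and 859 in shSMARCA4, 1087 and 907 in shMAFK, 692 and 1105 in shKDM1A, and 773 and 804 in shE2F6. The shMAFK libraries were both above the controls, with a difference of 0.34 (SE 0.23, interval -0.17 to 0.85, adjusted p 0.782), or 0.47 without the library labelled replicate 2. In shKDM1A replicate 1 was below and replicate 2 above the controls, with a difference of 0.16 (interval -0.35 to 0.67).

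Per kilobase, TET1 led the family in every library. It held 76.7% to 88.0% of the TET sum, TET3 10.6% to 21.9% and TET2 1.13% to 2.44%. Mean levels were 375, 71.0 and 7.44 normalized tag counts per kb, above 81.7%, 32.4% and 0.905% of genes. By the longest coding transcript TET1 held 74.8% to 86.6%. The highest TET1 shares were in shE2F6 replicate 2 and shSMARCA4 replicate 2, and the lowest were in the 2 shMAFK libraries.

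**Figure D3:**
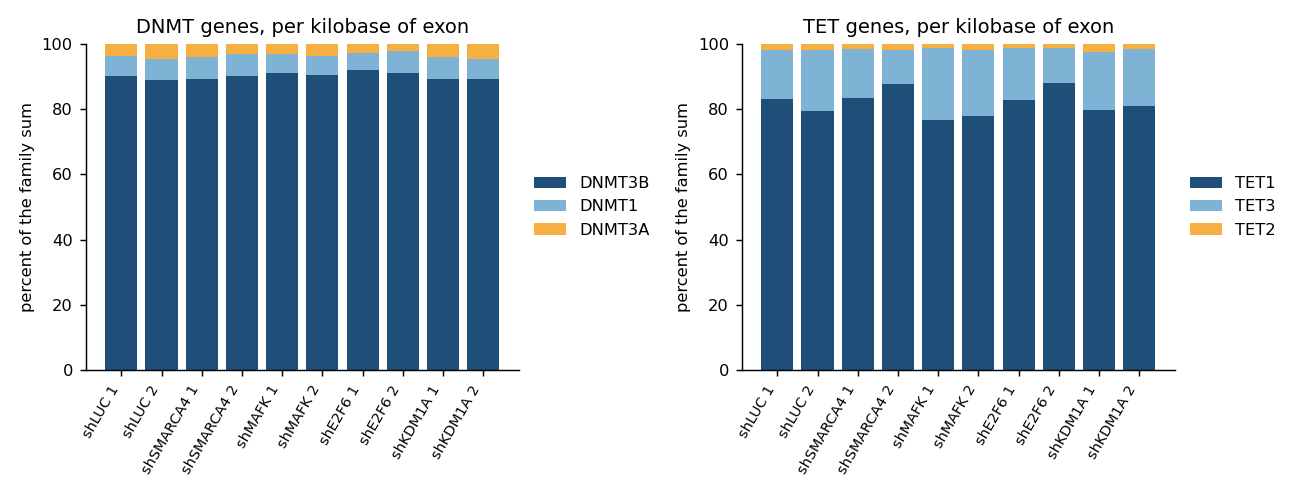
Share of each gene in the summed level of its family per kilobase of exon, in percent, for the 10 libraries. DNMT3B held 88.9% to 91.9% of the DNMT sum and TET1 76.7% to 88.0% of the TET sum.

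Counting libraries that did not overlap the controls gave 3 of 7 members in shSMARCA4 (DNMT1, TET1 and TET2, all higher), 3 in shMAFK (DNMT1, DNMT3B and TET3, all higher), 6 in shE2F6 and 1 in shKDM1A (TET2, higher). The same held for 51%, 49.1%, 40.7% and 38.8% of all rows, with 25.6%, 23.8%, 20.3% and 17.9% of rows higher than both controls. In shE2F6, DNMT1, DNMT3B, TET1 and UHRF1 were higher and DNMT3A and TET2 lower, while 20.4% of all rows were lower. The median difference of the 7 was 0.17 for shSMARCA4, -0.06 for shMAFK, 0.24 for shE2F6 and 0.06 for shKDM1A, beside medians over all rows of 0.01, 0.00, 0.00 and -0.02.

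Compared with each other, the knockdowns also gave no member past the threshold. Of 42 tests between pairs of knockdowns, 5 had an unadjusted p under 0.05 and the smallest adjusted p was 0.192. The difference of TET1, shMAFK minus shSMARCA4, was -0.71 on the log2 scale (interval -1.36 to -0.06, adjusted p 0.192), where 7.76% of all rows passed the adjusted threshold and 21.3% the unadjusted one. TET2 differed by -0.61 in the same comparison (adjusted p 0.211) and by -0.70 between shE2F6 and shSMARCA4 (interval -1.28 to -0.13, adjusted p 0.203). DNMT3B differed by 0.28 between shE2F6 and shSMARCA4 (adjusted p 0.288) and by -0.34 between shKDM1A and shE2F6 (adjusted p 0.245). Between shE2F6 and shSMARCA4 3.55% of all rows passed the adjusted threshold and 15.6% the unadjusted one, and between shKDM1A and shE2F6 0.129% and 15.2%. For the pairs with no member at an unadjusted p under 0.05 these shares were 6.87% and 24% (shKDM1A and shSMARCA4), 0.487% and 13.1% (shE2F6 and shMAFK), and 0.0406% and 13% (shKDM1A and shMAFK). In the moderated F-test across the 4 knockdowns 6.64% of all rows passed. Of the members 0 of 7 passed, also at an unadjusted p under 0.05 (23.6% of all rows), with adjusted p from 0.232 (DNMT3B) to 0.743 (UHRF1).

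The partners of these enzymes were then examined as lists of genes by role. Maintenance partners (9 of 9 present) include the clamp PCNA, the remodeller HELLS with its activator CDCA7, the deubiquitinase USP7 and the ligase LIG1. In all 4 knockdowns 0 of 9 passed, adjusted or unadjusted, with medians between -0.05 and 0.11. The largest differences were those of PCLAF in shMAFK (-0.41, adjusted p 0.734) and LIG1 in shSMARCA4 (0.37, adjusted p 0.436). CDCA7 in shE2F6 had 2638 and 2170 against 1950 and 1815 in shLUC (0.35, adjusted p 0.987).

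Among de novo partners 7 of 8 were rows, and DNMT3L, the catalytically inactive cofactor, was not analysed here. None passed. SUV39H1, a histone H3 lysine 9 methyltransferase, was lower in the shMAFK libraries (247 and 254) than in the controls (497 and 389), by -0.81 at an unadjusted p of 0.000689 and an adjusted p of 0.142. TRIM28, the scaffold that KRAB zinc fingers recruit, was at 23453 and 27326 in shE2F6 against 19692 and 18607 (0.40, adjusted p 0.987). KDM1B, the demethylase related to KDM1A, was at 404 and 447 in shSMARCA4 against 326 and 311 (0.42, adjusted p 0.181).

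Of the TET partners and the enzymes that set 2-oxoglutarate, 12 of 12 were present and 0 passed in any knockdown. IDH3G, a subunit of mitochondrial isocitrate dehydrogenase, had 194 and 471 in shKDM1A against 638 and 544 (-0.96, adjusted p 0.446). In the repair of oxidised methylcytosine (11 of 12 present) the glycosylase NEIL2 was at 330 and 326 in shSMARCA4 and 170 and 172 in shMAFK, around 234 and 250 in shLUC (0.44 and -0.50, adjusted p 0.252 and 0.433). Differences were negative for 9 of the 11 in shE2F6, 8 in shKDM1A, 8 in shSMARCA4 and 6 in shMAFK, and 0 passed. Of all 14785 rows 7497, 7697, 7251 and 7523 were negative, in the same order.

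Proteins that read methylated CpG (9 of 9 present) and unmethylated CpG (8 of 8) also had 0 past the threshold. ZBTB38, a zinc finger that binds methylated DNA, had 428 and 506 in shSMARCA4 against 170 and 306 (1.03, adjusted p 0.103). Positive differences were seen in shSMARCA4 for 8 of 9 and 7 of 8 of these genes, with medians of 0.14 and 0.21 beside 0.01 over all rows.

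The supply of S-adenosylmethionine, the methyl donor, held the 1 gene of the enzyme-side lists that passed. SHMT2, the mitochondrial serine hydroxymethyltransferase that feeds one-carbon units, had 2022 and 1636 normalized tag counts in shSMARCA4, against 3564 and 5172 in shLUC. It fell by 1.24 on the log2 scale (limma adjusted p 0.0351). The call was lost without either shLUC, either shSMARCA4 or either shMAFK library (adjusted p 0.0681 to 0.281). The same shSMARCA4 libraries had the high mesendoderm sums given above, and the part of any mesendoderm cells in the SHMT2 difference was not tested. Levels in shMAFK were 9502 and 8628 (1.08, adjusted p 0.211), outside the controls on the other side. MAT2B, the regulatory subunit of the enzyme that makes S-adenosylmethionine, was at 1380 and 1031 in shSMARCA4 against 2544 and 1847 (-0.86, adjusted p 0.137).

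S-phase genes were followed because DNMT1 and UHRF1 are known to be made with DNA replication. In shSMARCA4 17 of 18 had a positive difference, with a median of 0.20, and 0 passed. MCM5, a subunit of the replicative helicase, was nearest with 6928 and 7040 against 4852 and 4572 (0.57, adjusted p 0.0583). In shE2F6 11 of 18 were positive, with a median of 0.06, and RRM2, a ribonucleotide reductase subunit, was at 3110 and 3110 against 2442 and 1809 (0.57, adjusted p 0.885).

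Transcripts known to be held down or marked by DNA methylation were examined next. Of 18 germline and cancer-testis genes 8 were rows, and 1 passed, in shKDM1A. CTCFL, the testis paralog of CTCF, had 1140 and 995 there against 96 and 82 in shLUC, a rise of 3.57 (adjusted p 0.000225). CTCFL was known from earlier results of these data when the list was made, so it is not independent evidence of a direction. It was at 252 and 284 in shMAFK (1.58, adjusted p 0.0619). With only the shKDM1A and shLUC libraries in the fit its shKDM1A adjusted p was 0.0519, the largest over the alternatives. MAGEA4, a cancer-testis antigen on the X chromosome, had 354 and 358 against 11 and 22 (4.43, adjusted p 0.0550), and its adjusted p ran from 0.00629 (without shKDM1A replicate 2) to 0.600 (without shLUC replicate 1) over the alternatives. The remaining 6 of the 8 had differences between -0.75 and 0.47 in shKDM1A, DAZL, TDRD1 and PIWIL2 among them. The list's median in shKDM1A was 0.28, and 0.01 without shLUC replicate 1. It was 0.33 in shMAFK, 0.18 in shE2F6 and -0.19 in shSMARCA4. In shKDM1A, shMAFK and shE2F6 alike, 5 of the 8 were positive. At an unadjusted p under 0.05, 2 were higher in shKDM1A and 2 in shMAFK, beside 865 and 632 of all 14785 rows.

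Of the 14 TE subfamilies, young LINE-1, SVA and endogenous retrovirus families known to be methylated, all were rows and 0 passed in any knockdown. In shKDM1A 12 of 14 had a positive difference, with a median of 0.56 beside -0.02 over all rows, and 7 were higher at an unadjusted p under 0.05 against 5.85% of all rows. L1HS, the human-specific LINE-1, was at 2952 and 2830 against 1432 and 1586 (0.94, adjusted p 0.245). Its adjusted p ran from 0.0374 (without shKDM1A replicate 2) to 0.912 (without shLUC replicate 1) over the alternatives. The count of 7 depended on single libraries. The list's median was 0.28 without shKDM1A replicate 1 and 0.88 without replicate 2 of that group. The count was 3 without shKDM1A replicate 1, 11 without replicate 2 of that group and 2 without shLUC replicate 1, and it was 3 with only these 2 groups in the fit. Most SVA subfamilies were high in shKDM1A replicate 1 and near the controls in replicate 2, as SVA_D shows with 7576 and 4486 against 3190 and 4196. HERVK-int was lower, not higher, in that comparison (1076 and 3474 against 3780 and 3780, adjusted p 0.455). In shMAFK 12 of 14 were positive too, with a median of 0.24. There 1 was higher at an unadjusted p under 0.05, beside 632 of all 14785 rows. In shE2F6 6 of 14 were positive, with a median of -0.01. In shSMARCA4 11 of 14 were negative, with a median of -0.21. How reads of similar subfamilies were shared is not given, so these rows are not independent.

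Imprinted genes, where 1 parental allele is methylated, included 15 of 24 as rows, with 3 past the threshold, all in shSMARCA4, where 4.18% of all rows passed. MEG3, a maternally expressed noncoding RNA, had 120 and 106 against 388 and 475 and fell by 1.92 (adjusted p 0.000782). GRB10, a growth factor receptor adaptor, had 776 and 858 against 1972 and 2185 and fell by 1.35 (adjusted p 0.00207). PLAGL1, a paternally expressed zinc finger, had 230 and 215 against 66 and 66 and rose by 1.74 (adjusted p 0.0156), a call lost without either library of shLUC or shSMARCA4 (adjusted p 0.0962 to 0.122). The other 12 did not pass, and the list's median was -0.09. The sum of mesendoderm markers was higher in the same libraries (9497 and 1862 against 220 and 162), and that of the 2 measured trophoblast or amnion markers was lower (86 and 80 against 278 and 355). KRT7, a keratin on the trophoblast list, had 30 and 44 against 218 and 296 and fell by 2.77 (adjusted p 0.00463). ZIC1, a transcription factor on the neural ectoderm list, had 462 and 1004 against 95 and 149 and rose by 2.51 (adjusted p 0.0147). The rest of that list went the other way. Of its 4 measured genes 1 was positive and 3 were negative, with a median of -0.50. The summed list was at 13699 and 9526 against 14566 and 16324 in shLUC. The part of other cell types in these results was not tested.

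**Figure D4:**
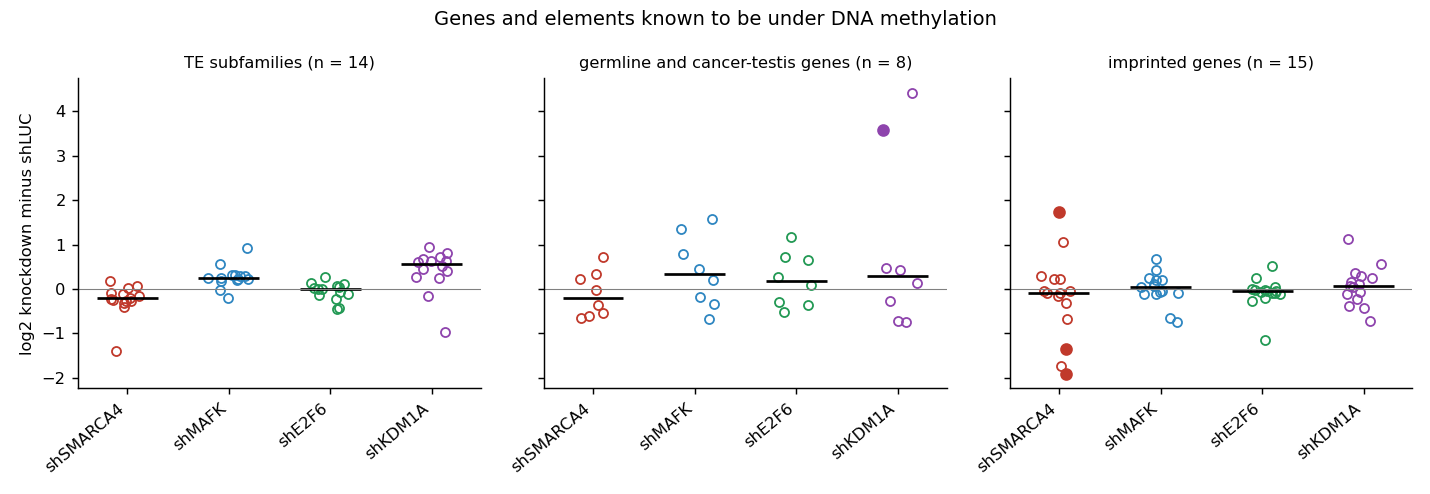
Difference from shLUC on the log2 scale for each measured TE subfamily (14), germline or cancer-testis gene (8) and imprinted gene (15), by knockdown. Filled points passed the adjusted threshold of 0.05 and bars mark medians. CTCFL is the filled point in shKDM1A, and MEG3, GRB10 and PLAGL1 are those in shSMARCA4.

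Over the 8 enzyme-side lists and the germline and imprinted genes together, with the TE subfamilies left aside, 103 different genes were measured. In shSMARCA4 1 was higher and 3 were lower past the threshold (3.883%, beside 4.18% of all rows), in shMAFK and shE2F6 0 passed, and in shKDM1A 1 was higher (0.971%, beside 0.0271%). That 1 gene is CTCFL, which was known from earlier results of these data when its list was made. The shKDM1A share is therefore not independent evidence. At an unadjusted p under 0.05 the counts of these 103 genes were 14 in shSMARCA4 (beside 16.3% of all rows), 11 in shMAFK (8.77%), 5 in shE2F6 (5.09%) and 6 in shKDM1A (11.5%).

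Across the 10 libraries the members did not move as a block. Pearson's r between pairs of members, on the log2 scale, ran from -0.73 (DNMT1 with DNMT3A) to 0.63 (DNMT1 with DNMT3B), and TET1 and UHRF1 had an r of -0.51. UHRF1 and DNMT1, which act together, had an r of 0.26. For these descriptions the points are libraries, which share their group and the common scaling.

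The genes whose levels were most like a member's were taken by Pearson's r over the 10 libraries. For TET1 they were FAM120A (r = 0.968), AC009055.1 (0.968) and the transcription factor E2F3 (0.960). E2F3 had 1627 and 2090 in shSMARCA4 and 1436 and 1848 in shE2F6, with replicate 2 the higher in both as for TET1, against 1380 and 1446 in shLUC. For UHRF1 they included SLBP (0.932), the histone stem-loop binding protein made in S phase, and FTSJ3 (0.930). SLBP had 1631 and 874 in shKDM1A and 1304 and 930 in shSMARCA4, against 1080 and 1027 in shLUC, so that its replicates parted in the direction of UHRF1's. The nearest for the other members were RPS6KA4 for DNMT1 (0.926), RLN2 for DNMT3A (0.950), PACRGL for DNMT3B (0.898), RAB25 for TET2 (0.903) and GPR108 for TET3 (0.934). They are the highest of 13808 genes over these libraries.

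**Figure D5:**
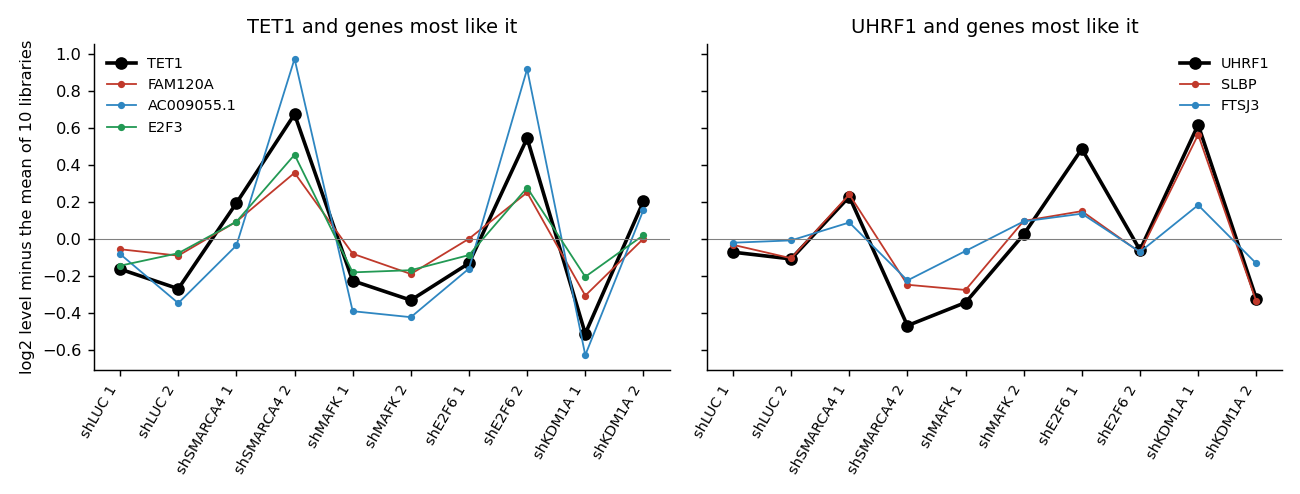
Level of TET1 (left) and UHRF1 (right) with 3 and 2 of the genes most like them, as log2 level minus its mean over the 10 libraries; lines only join the points of a gene. TET1 and its neighbours peaked in replicate 2 of shSMARCA4 and shE2F6, and UHRF1, SLBP and FTSJ3 in replicate 1 of shKDM1A.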

How the data were processed

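RNA-seq of 10 libraries of H1 cells was analysed from the authors' deposited table of single libraries. The deposited score values are whole numbers that the authors had normalized, read here as normalized tag counts. The submitters' processing notes name STAR, STARsolo and hg38 without a role. The counter, annotation and normalization are not given in the sources used here. Because the scaling equalised the libraries, depth is unknown, no counting interval is given, and changes in total RNA or swaps of neighbouring high ranks are not measured faithfully. Columns mapped to no sample numbered 0.

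Values were analysed as log2(value + 1), which understates changes of low rows. A minimum mean of 10 was required, which removed 0 rows. limma 3.58.1 in R 4.3.3 (mean-variance trend, two-sided) fitted 5 group means to 10 libraries with 5 residual degrees of freedom, and p-values were adjusted by Benjamini-Hochberg over all 14785 rows. The code was tested on simulated data. Whether duplicates came from separate infections is not given, so p-values measure the spread between these libraries. Positions and lengths are from GENCODE release 29. Promoters are from RefSeq. Tables and plots used Python 3.11.15, pandas 2.3.3 and matplotlib 3.10.9.

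Named genes were the 7 members, the 4 targets, list genes past the threshold, the 2 largest differences per list and comparison, and the 3 genes most like each member, of which 1 for UHRF1 is not reported here. DAZL, TDRD1, PIWIL2 and SVA_D were named after their values were seen. The members and lists were chosen with earlier results of these data known. Alternatives covered pseudocount, filter, rescaling, variance model, libraries fitted, replicate block and each library left out. The 4 marker lists were pluripotency, mesendoderm, neural ectoderm and trophoblast. Of the last pair, 4 of 8 and 2 of 8 were rows, with sums from 9511 to 17345 and from 80 to 439, and both of the lowest trophoblast sums were in shSMARCA4.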

Additional observations from a re-analysis of the deposited data

How the results depend on the processing

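The count of members past the threshold was 0 in all 4 knockdowns and in the F-test under every alternative run, and 0 of the 28 differences passed under any. Signs changed only when a library was left out. Leaving out each library gave ranges of -0.14 to 0.16 for TET3 in shE2F6 (-0.02 without its replicate 2), -0.43 to 0.040 for DNMT3A and -0.38 to 0.32 for UHRF1 in shSMARCA4, -0.27 to 0.047 for DNMT3A (0.02 without shLUC replicate 2), -0.41 to 0.00079 for TET2 and -0.25 to 0.11 for UHRF1 in shMAFK, and, in shKDM1A, -0.10 to 0.16 for DNMT3A, -0.059 to 0.13 for DNMT1, -0.23 to 0.71 for UHRF1, -0.30 to 0.42 for TET1 and -0.18 to 0.50 for TET3. Counts of all rows past the threshold moved more, and the cause was not tested. With group weights they were 1306 in shSMARCA4, 487 in shMAFK, 21 in shE2F6, 2 in shKDM1A and 1535 in the F-test, against 618, 2, 0, 4 and 982. Without both shKDM1A libraries they were 1162, 34, 5 and 2117 (F-test). Only the 2 groups compared gave 32 in shMAFK, 1 in shE2F6 and 1 in shKDM1A. Without the variance trend 5 rows passed in shMAFK and 9 in shKDM1A, and after quantile normalization 5 in shMAFK. Leaving out each library gave 89 to 1159 in shSMARCA4, 0 to 37 in shMAFK, 0 to 5 in shE2F6, 1 to 3235 in shKDM1A and 278 to 5302 in the F-test, where a group with 1 library was assumed to vary like the others. Whether replicate numbers pair the samples is not given in the sources used here. The correlation of deviations was -0.05 to 0.34, over 0.1 in 2 of 10 pairs of groups and highest for shSMARCA4 with shE2F6. With the number as a replicate block 1 row passed in shMAFK and 0 members in any comparison. In that fit TET1 in shSMARCA4 had a limma unadjusted p of 0.0273 and an adjusted p of 0.202. Rescaling used an unweighted trimmed mean of M values. The settings for single list genes were added after seeing the data, and unknown depth limits every low row.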
